A study of Mus musculus with 6 samples.

Results

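The squamous epithelium of the penis is built and kept by a small group of transcription factors, and 9 genes of this group were followed in mouse penile squamous cell carcinoma: Trp63, Klf4, Klf5, Grhl1, Grhl2, Grhl3, Ovol1, Gata3 and Zfp750. They were taken by symbol from the 24063 gene symbols of the RNA sequencing data, each by its transcript row with the highest mean count. The tumors came from 3 SA mice, which are PB-Cre+ Smad4L/L ApcL/L, and the controls were the penile epithelium of 3 wild type (WT) C57BL/6 mice. All 6 mice were 5 months old, the strain of the SA mice was not given in the sources used here, and each group had 3 libraries. PB-Cre4 is driven by an androgen-responsive probasin promoter and is also active in the prostate, so the floxed genes are open to deletion where that promoter works and not in the whole animal. The tumors arose without a carcinogen. The labels call the samples replicates and do not say more of their source, so that the p-values measure the spread between these samples.

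In stratified epithelium, p63 (encoded by Trp63) maintains the proliferating basal layer, and cells that leave this layer pass through a suprabasal program in which KLF4, ZNF750 (the human counterpart of Zfp750), OVOL1 and the grainyhead-like factors act. KLF5 is active in basal and proliferating cells of many epithelia. GRHL factors hold genes of cell junctions and of the barrier active, OVOL1 represses genes of the progenitor and mesenchymal state, and GATA3 acts in the skin barrier, the hair follicle, the luminal cells of breast and urothelium, and T cells.

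Trp63 is made from different starts. The ΔN form, typical of basal epithelium, begins in an exon of its own and lacks the amino-terminal transactivation (TA) domain. The coding part of the first coding exon of each form is shown because these starts set the 2 forms apart (GRCm38, plus strand, start codon in capitals). The ΔN stretch lies at chr16:25802060-25802101 and the TA stretch at chr16:25684290-25684351.
ΔN: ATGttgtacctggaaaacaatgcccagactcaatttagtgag
TA: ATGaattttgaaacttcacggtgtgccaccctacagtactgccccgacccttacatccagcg
Grhl1, the other gene here with several rows, has an upstream and a downstream start. Their 300-base windows from RefSeq (GRCm38.p6, plus strand) hold 250 bases before the start and 50 from it, with the start base in capitals, at chr12:24572037-24572336 and chr12:24580469-24580768.
Upstream: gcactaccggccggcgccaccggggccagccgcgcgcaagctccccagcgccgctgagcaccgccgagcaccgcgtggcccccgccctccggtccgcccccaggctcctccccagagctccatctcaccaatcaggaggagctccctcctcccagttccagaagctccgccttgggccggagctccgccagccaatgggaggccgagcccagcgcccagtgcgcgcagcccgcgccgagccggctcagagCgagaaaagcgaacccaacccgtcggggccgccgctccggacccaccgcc
Downstream: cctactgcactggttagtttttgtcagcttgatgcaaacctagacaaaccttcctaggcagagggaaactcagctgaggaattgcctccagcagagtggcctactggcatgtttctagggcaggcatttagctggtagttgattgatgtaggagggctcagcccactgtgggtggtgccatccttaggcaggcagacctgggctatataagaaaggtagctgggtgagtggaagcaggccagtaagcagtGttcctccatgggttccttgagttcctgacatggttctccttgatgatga
The upstream window had a GC content of 75.3% and the downstream window of 51.3%.

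Depth was uneven. The gene rows of a library held 23828283 to 110509147 counts, and SA replicate 3 was sequenced 4.42 times deeper than the median library of the remaining 5. Krt5 and Krt14, the keratins of the basal layer, were abundant in both groups. Their lowest normalized counts in any library were 3.07e+03 and 5.07e+03 reads per 1e+06 (CPM). Krt5 was nevertheless lower in the tumors, at 3071, 3194 and 3587 CPM in SA and 7814, 7458 and 7569 CPM in WT. Its log2 fold change was -1.21 (edgeR adjusted p = 7.35e-05), while Krt14 was not called (-0.49, adjusted p = 0.0504). The WT samples also contained non-epithelial tissue. The summed level of 8 smooth muscle markers was 1832 to 2421 CPM in the WT penises and 105 to 226 CPM in the SA tumors, and all 8 were lower in the tumors. The sum of 8 fibroblast markers was 6266 to 6544 CPM in WT and 1620 to 5204 CPM in SA, with the lowest value in the first SA tumor, and 1 of these markers was called lower and 1 higher. Their part in the changes below was not tested. In bulk tissue, fewer cells of a type and less RNA per cell cannot be told apart. Smad4 was measured at 36.6, 36.1 and 46.1 CPM in the SA tumors and at 61.2, 69.7 and 72.5 CPM in the WT penises, and Apc at 253, 194 and 197 CPM against 62.5, 85.3 and 91.1 CPM. Counts over a whole transcript do not resolve the floxed exons, so neither gene checks the genotype here.

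Of the 9 factors, 7 were lower in the SA tumors at an adjusted p under 0.01 (edgeR quasi-likelihood F-test, Benjamini-Hochberg adjusted over 16336 genes), against 17.5% of all genes tested. Gata3 was higher, against 20.1% of all genes, and Grhl2 was not called. No factor passed both thresholds of the study, which add to that adjusted p a log2 fold change whose size is 2 or more. Of all genes, 3.59% passed both as lower and 9.41% as higher. The CPM of the groups did not overlap for any of the 9 genes, with 8 lower and 1 higher in SA, whereas 30.7% of all genes were lower and 32.7% higher without overlap. The median log2 fold change was -0.86 over the 9 genes and 0.03 over all genes tested.

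**Figure D1:**
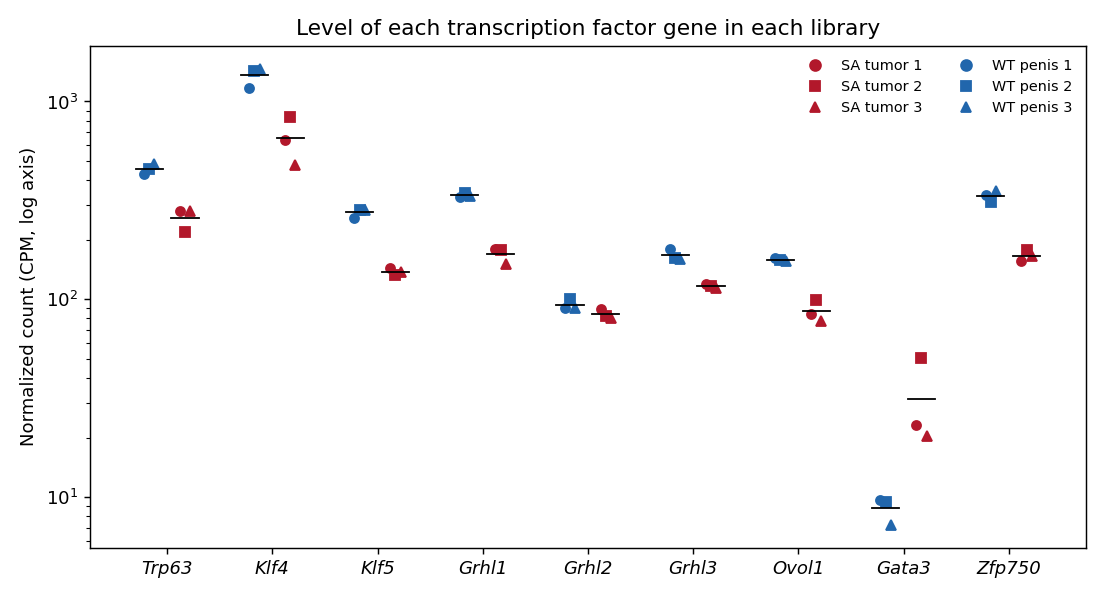
Normalized counts (CPM, log axis) of the 9 genes in each library, with SA tumors in red, WT penises in blue, the marker shape giving the replicate and a line at the group mean. Every gene but Gata3 is lower in the tumors, the Grhl2 groups nearly touch, and the second SA tumor stands highest for Klf4, Ovol1, Zfp750 and Gata3.

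Trp63, the basal regulator (chromosome 16, 25683763 to 25892088), was expressed at 278, 219 and 279 CPM in the SA tumors and at 429, 457 and 483 CPM in the WT penises. The tumors were all below the controls, and the second tumor was the lowest. The mean fell from 456 ± 26.7 to 259 ± 34.8 CPM (SD, n = 3 each), and the fitted log2 fold change was -0.82 (SE, the standard error, 0.123, adjusted p = 0.000712). On the scale of TPM, the level per transcript length that the authors deposited, Trp63 was at 98.3 ± 16.01 in SA and 134 ± 15.8 in WT (SD, n = 3 each).

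Trp63 has 8 transcript rows, and a fragment that fits several rows was counted in each. The ΔN row (NM_011641, 4689 bases, with the α end) and the TA row with the same end (NM_001127259) differ only by their first exons, 186 bases in the ΔN row and 849 in the TA row. Their difference is therefore the number of fragments that fit the ΔN exon and not the TA row, less those that fit the TA exons alone. In the SA tumors it came to 168, 145 and 892 counts, and to 152, 355 and 270 for WT. The ΔN row was larger in all 6 libraries, although its own exon makes up 3.97% of its length and the TA exons 15.9% of theirs. The difference was 2.19% to 2.59% of the ΔN row in SA and 1.60% to 2.59% in WT, so the ranges overlapped. The α row exceeded the β row with the ΔN start by 0.878% to 1.23% in SA and by 0.948% to 1.14% in WT. No test was made of these shares, and the fragments of the TA start alone cannot be counted from the rows.

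**Figure D2:**
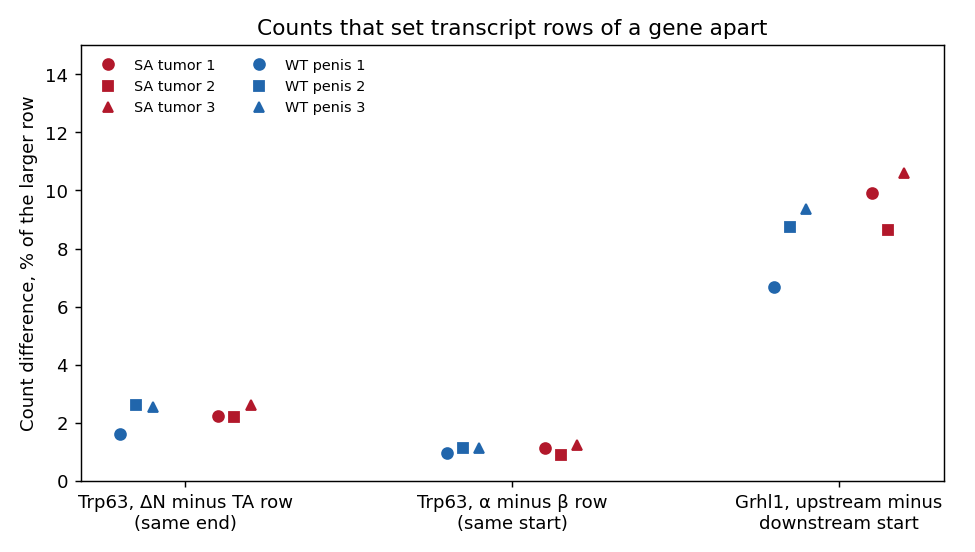
Difference in count between 2 rows of the same gene, in percent of the larger row, for each library (SA tumors red, WT penises blue, marker shape by replicate). For all 3 pairs of rows the range of the tumors overlaps that of the controls.

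KLF4, a zinc finger factor of the suprabasal layers, was encoded by the most abundant of the 9 transcripts. Klf4 (chromosome 4, 55527137 to 55532475) was at 641, 838 and 479 CPM in the tumors and at 1171, 1425 and 1464 CPM in the controls. The tumors varied more among themselves than in any other lowered factor, and their highest value stayed below the lowest control. The log2 fold change was -1.05 (SE 0.201, adjusted p = 0.00256), from 1353 ± 159 to 653 ± 180 CPM (SD, n = 3 each). The call was lost without WT replicate 2 (adjusted p = 0.0109) or WT replicate 3 (adjusted p = 0.0106). Klf5 (chromosome 14, 99298691 to 99313412) was at 144, 133 and 137 CPM in SA and at 259, 284 and 284 CPM in WT. Both groups were narrow, with SDs of 5.24 and 14.4 CPM (n = 3 each) and nearly a doubling between them. Klf5 had the smallest adjusted p of the 9 genes, 4.81e-05 at a log2 fold change of -0.999 (SE 0.0912). The ratio of Klf4 to Klf5 TPM was 2.53, 3.56 and 1.98 in the tumors and 2.56, 2.85 and 2.92 in the controls, and the groups overlapped. The ratio of Klf4 to Trp63 also overlapped, at 2.64 to 5.90 in SA and 4.2 to 4.8 in WT.

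ZNF750 and OVOL1 promote differentiation above the basal layer. Zfp750 (chromosome 11, 121510976 to 121519342) was at 156, 178 and 166 CPM in the tumors and at 338, 310 and 353 CPM in the controls. All tumors lay far below all controls. The log2 fold change was -1.004 (SE 0.100, adjusted p = 7.57e-05). Ovol1 (chromosome 19, 5549137 to 5560575) was at 84.6, 99.5 and 77.4 CPM in SA and at 162, 158 and 156 CPM in WT. The controls were nearly equal, while the second tumor stood above the other 2. Its log2 fold change was -0.86 (SE 0.110, adjusted p = 0.000290).

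The 3 grainyhead-like genes changed by unequal amounts. Grhl1 (chromosome 12, 24572232 to 24617391), a regulator of desmosomal genes, was at 179, 178 and 151 CPM in the tumors and at 331, 343 and 334 CPM in the controls. The groups were well apart, with a log2 fold change of -0.99 (SE 0.102, adjusted p = 9.09e-05). Grhl3 (chromosome 4, 135541887 to 135573632), needed for the barrier and for wound closure, was at 119, 117 and 114 CPM in SA and at 180, 162 and 161 CPM in WT. The tumors were close together and below every control, by a log2 fold change of -0.52 (SE 0.0898, adjusted p = 0.00145). Grhl2 (chromosome 15, 37232821 to 37363569), a keeper of epithelial junction genes, was at 89.4, 82.3 and 80.5 CPM in SA and at 89.9, 101 and 89.9 CPM in WT. The highest tumor and the lowest control were nearly equal. The log2 fold change of Grhl2 was -0.15 (95% interval -0.37 to 0.06, adjusted p = 0.206), so a small change in either direction remained possible.

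Ratios of TPM within a library do not depend on how libraries are scaled. Grhl1 was at 2.85, 3.08 and 2.67 times the TPM of Grhl2 in the tumors and at 5.24, 4.87 and 5.30 times in the controls. Grhl3 was at 2.37 to 2.53 times the TPM of Grhl2 in SA and 2.86 to 3.57 times in WT, and the ratio of Grhl1 to Grhl3 was 1.06 to 1.22 against 1.47 to 1.70. In each of these the groups were apart. The ratios to Grhl2 of Trp63, Klf4, Klf5, Ovol1 and Zfp750 were also lower in every tumor than in every control. For Trp63 the ratio was 2.80 to 3.66 in SA and 4.79 to 5.66 in WT, and for Zfp750 it was 2.65 to 3.29 against 4.70 to 5.98. Grhl2 and the other ratios were chosen after the values had been seen, and no test was made of them.

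The 2 rows of Grhl1 share most of their bases. The row with the upstream start (NM_001161406, 434 bases of its own, 12.5% of its length) exceeded the row with the downstream start (NM_145890) by 478, 464 and 1968 counts in SA and by 489, 899 and 686 in WT. This was 8.63% to 10.6% of the upstream row in the tumors and 6.69% to 9.36% in the controls. The downstream row has 35 bases of its own, 1.13% of its length. The sign of the difference therefore cannot tell which start was used more. The difference was positive in all 6 libraries and its share overlapped between the groups. In CPM it was 16.4 ± 1.25 in SA and 27.8 ± 4.98 in WT (SD, n = 3 each), and every tumor lay below every control.

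Gata3 (chromosome 2, 9857078 to 9887953) was the only one of the 9 genes that was higher in the tumors, at 23.2, 50.2 and 20.4 CPM against 9.67, 9.48 and 7.24 CPM. The second tumor had over 2 times the level of the other tumors, and all 3 lay above the controls. The log2 fold change was 1.82 (SE 0.356, adjusted p = 0.00396), or 3.54-fold. The call was lost without WT replicate 1, 2 or 3 (adjusted p = 0.0227, 0.0214 and 0.0283), and the log2 fold change stayed between 1.30 and 2.06 when each of the 6 libraries was left out. Per length, Gata3 remained the lowest of the 9 genes in SA tumors, at 17.1 ± 8.40 TPM against 3.74 ± 0.443 TPM in WT (SD, n = 3 each).

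Gata3 is also a T cell gene. The CD3 chain genes Cd3e, Cd3d and Cd3g were at or below 3.25 CPM in every library. Cd5, another T cell gene, was at 23.9, 21.8 and 14.7 CPM in SA and 2.69 to 3.04 CPM in WT. Lck was at 4.27, 4.10 and 4.26 CPM in SA and 0.501 to 1.31 CPM in WT. Of 10 markers of T cells and group 2 innate lymphoid cells, 5 were higher and none was lower in SA. The sum of the 10 was 59.5 to 76.4 CPM in SA and 7.43 to 13.9 CPM in WT. Cd3e, Cd3d, Cd3g, Cd2 and Cd4 were not called, and the groups overlapped for each of them. Il1rl1, the receptor of interleukin 33, had the largest rise of that list, at 23.0, 24.9 and 29.2 CPM in SA and 0.271, 0.534 and 0.410 CPM in WT. Il1rl1 and Cd5 had the highest levels of the list in every SA tumor. General leukocyte markers summed to 127 to 367 CPM in SA and 84.6 to 130 CPM in WT, with 1 of 8 called higher. Among genes of luminal and simple epithelium, Krt7 was at 183, 239 and 121 CPM in SA against 4.51 to 5.78 CPM in WT. Krt8 and Krt18 reached 287 and 302 CPM in the second tumor. The 3 keratins were highest in the second tumor and lowest in the third, as were Gata3, Klf4 and Ovol1, so this order was not particular to them. Upk1a, Upk1b, Upk2 and Upk3a, which encode the uroplakins of the urothelium, were at or below 2.98 CPM in all libraries. Upk2 and Upk3a were called higher past both thresholds, Upk3a at 2.60, 2.98 and 2.31 CPM in SA with no count in WT, and Upk2 at 2.86, 1.85 and 0.983 CPM in SA against 0.0452, 0.100 and 0 CPM in WT. Of the 7 urothelial markers tested, these keratins included, 5 were higher and none lower. The part of lymphoid, other leukocyte, luminal or urothelial cells in the level of Gata3 was not tested.

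On the TPM scale the order of mean levels in WT was Klf4 at 613 ± 107, Klf5 at 220 ± 24.3, Zfp750 at 141 ± 13.6, Trp63 at 134 ± 15.8 and Grhl1 at 133 ± 9.56 (SD, n = 3 each). These were followed by Grhl3 at 82.5 ± 1.15, Ovol1 at 75.0 ± 3.30, Grhl2 at 26.0 ± 2.57 and Gata3. Zfp750, Trp63 and Grhl1 did not differ beyond their spread. In the SA tumors Klf4 was at 378 ± 92.1 and Klf5 at 142 ± 8.73 TPM, followed by Trp63, Zfp750 and Grhl1, whose SD ranges overlapped. Grhl2, at 30.2 ± 1.98 TPM, was then nearest to Gata3. On this scale Grhl2 was slightly higher in SA than in WT, at 28.5 to 32.3 against 23.3 to 28.4 TPM, opposite in sign to its change in CPM.

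**Figure D3:**
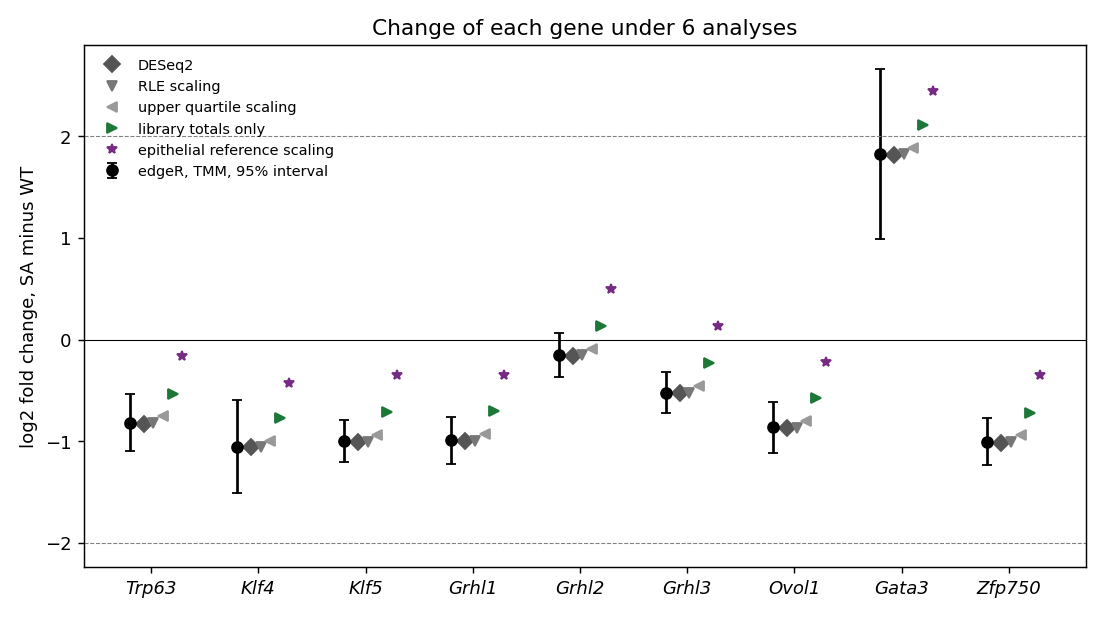
Log2 fold change (SA minus WT) of the 9 genes, with the 95% interval of the edgeR fit in black and the value under 5 other analyses. Dashed lines mark a log2 fold change of 2 in size. Scaling by epithelial reference genes moves every gene up and turns Grhl2 and Grhl3 above 0, scaling by library totals turns Grhl2, and Gata3 is higher in all 6 analyses.

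The calls of the lowered factors depended on what the libraries were scaled to, while among these 7 the direction turned for Grhl3 alone, under epithelial reference scaling. With 12 epithelial reference genes as the base, of which 8 were themselves called lower and 1 higher, all genes shifted up by 0.65 in log2, and 89.8% of the called genes were higher in SA, against 53.4% with TMM scaling. Under that scaling only Grhl1 was called lower (log2 fold change -0.35), Trp63 was at -0.16 (adjusted p = 0.387), and Grhl2 was called higher at 0.50 (adjusted p = 0.00355). With library totals alone the shift was 0.29 and 74.4% of the called genes were higher. Relative to the epithelial reference genes 6 of the 9 factors were thus not called, whereas with TMM scaling 7 were lower.

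Profiles of other genes were compared with that of Trp63 and, as the gene with the largest change, of Gata3 by the root mean square distance of mean-centred log2 CPM over the 6 samples, among 13822 genes. Closest to Trp63 were Galnt3, Rab10 and Plxna2, at distances of 0.0467, 0.0512 and 0.0544. Rab10 had a log2 fold change of -0.82. Closest to Gata3 were Defb6, Chchd10 and D430041D05Rik, at 0.183, 0.226 and 0.232. Defb6, a defensin gene, was at 24.6, 44.8 and 16.2 CPM in SA and 8.02 to 10.8 CPM in WT, again highest in the second tumor. Among the 9 factors themselves, Klf5 and Grhl1 were the closest pair, at a distance of 0.0894.

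The families of these factors were looked at next. Of 15 KLF genes tested, Klf4 and Klf5 included, 10 were lower and 1 was higher in SA, with a median log2 fold change of -1.05. With epithelial reference scaling 3 were lower and 3 higher, and with library totals 6 were lower and 1 higher. Klf9, a factor induced by glucocorticoids, had the largest called fall, a log2 fold change of -1.73 (adjusted p = 0.00017), from 77.4 to 100 CPM in the controls to 18.2 to 30.0 CPM in the tumors. Klf13 was the called rise, at a log2 fold change of 0.73 (adjusted p = 0.0059), and Klf14 and Klf17 were too low to be tested. The number of lower KLF genes was 6 without WT replicate 2 or 3, and Klf13 was not called without either of the first 2 SA replicates or the first 2 WT replicates. Of 3 GATA genes tested, Gata3 and Gata6 were higher and Gata2, a factor of blood and endothelial cells, was lower, at a log2 fold change of -1.02 (adjusted p = 0.00983). Gata2 lost its call without the first or second replicate of either group. In the p53 family Trp73 rose, at 34.8, 39.6 and 34.3 CPM against 12.1, 17.9 and 15.1 CPM, a log2 fold change of 1.27 (adjusted p = 0.00024), and Trp53 had a log2 fold change of 0.24 (adjusted p = 0.0877). Among 9 genes of the GRHL and OVOL families, Grhl1, Grhl3 and Ovol1 fell, none rose, and Ovol2 was at 3.83 to 6.24 CPM in SA and 4.24 to 6.92 CPM in WT. With epithelial reference scaling this turned to 1 lower and 3 higher. In the GATA family that scaling left 0 lower and 2 higher, and in the p53 family 0 lower and 2 higher.

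Of 24 other transcription factors of stratified epithelium, 8 were higher and 10 lower, with a median log2 fold change of -0.21. With epithelial reference scaling 11 were higher and 4 lower. The 3 largest rises all passed both thresholds. Elf3, an ETS factor of differentiating epithelium, was at 96.8, 111 and 66.7 CPM in SA and 5.60 to 8.27 CPM in WT, a log2 fold change of 3.65 (adjusted p = 7.95e-06). Pitx1, a homeobox factor of hindlimb and oral epithelium, had a log2 fold change of 3.17 (adjusted p = 2.42e-06), and Runx1, a factor of hair follicle stem cells and blood, of 2.11 (adjusted p = 3.63e-06). Hopx was both the most abundant gene of this list by mean TPM and the one with the largest fall, at 73.8, 89.3 and 91.8 CPM in SA against 546, 505 and 558 CPM in WT, a log2 fold change of -2.66 (adjusted p = 2.11e-06). The other ETS genes of the list moved the opposite way to Elf3, with log2 fold changes of -1.48 for Elf5 and -1.03 for Ehf. Pitx1, Runx1, Elf5 and Ehf were named after their values had been seen.

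**Figure D4:**
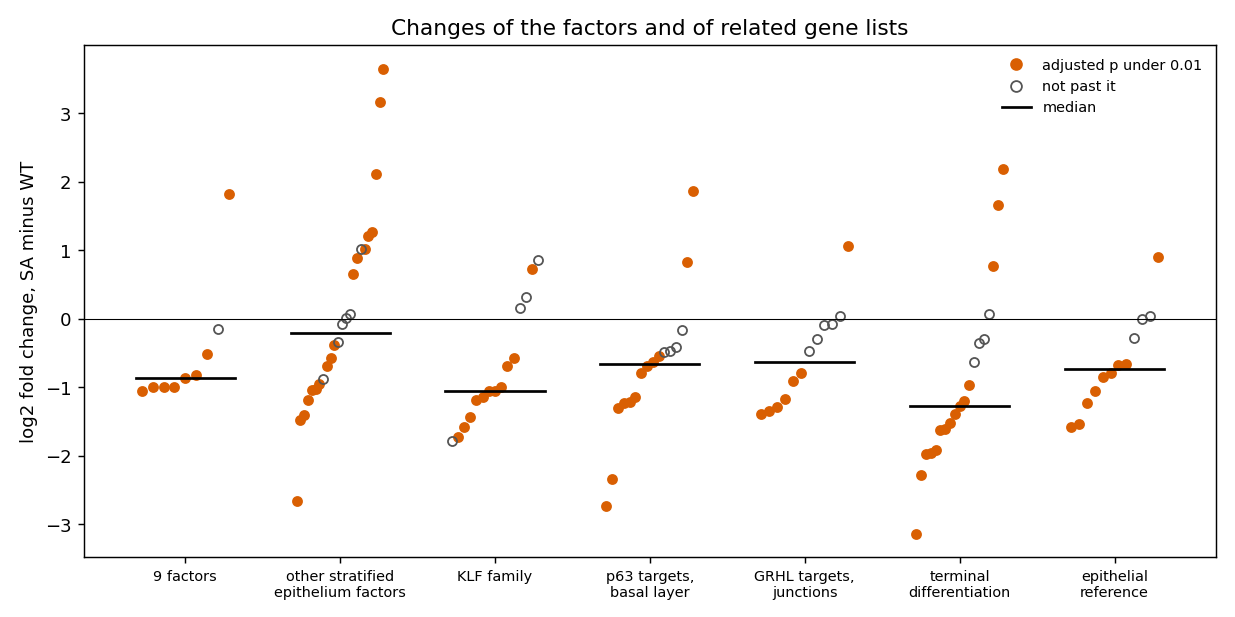
Log2 fold change (SA minus WT) of the 9 factors and of the tested genes of 6 lists, 1 point for each gene, filled orange where the adjusted p was under 0.01, with the median as a line. The medians of these 6 lists are below 0 with TMM scaling, the small GATA, p53 and GRHL and OVOL families, with medians of 1.43, 0.24 and -0.15, are not drawn, and the other stratified epithelium factors spread from -2.66 to 3.65.

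Of 16 genes that p63 is known to control in the basal layer, 10 were lower and 2 higher with TMM scaling (median log2 fold change -0.66), and 4 were lower and 3 higher with epithelial reference scaling. Col17a1, a hemidesmosomal collagen, fell most, from 2.48e+03 to 3.16e+03 CPM in WT to 305, 453 and 531 CPM in SA, a log2 fold change of -2.74 (adjusted p = 2.26e-05). Krt14, the most abundant of the list by TPM, was not called, with a log2 fold change of -0.49 (adjusted p = 0.0504). Satb1, a chromatin organizer, rose by a log2 fold change of 1.86 (adjusted p = 0.000128), from at most 2.87 CPM to 8.03 CPM or more. Fermt1, the other gene called higher and named after its value had been seen, had a log2 fold change of 0.83 (adjusted p = 0.00326). Only 1 gene of this list was called higher without SA replicate 2, WT replicate 2 or WT replicate 3.

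Of 12 GRHL targets at cell junctions and the cell surface, 6 were lower and 1 was higher with TMM scaling (median log2 fold change -0.63), and 3 were lower and 3 higher with epithelial reference scaling. The desmoglein gene Dsg1a had the largest fall, a log2 fold change of -1.39 (adjusted p = 0.00016), and Rab25, a vesicle protein gene of epithelia and the most abundant of the list by TPM, was at 177, 200 and 161 CPM in SA and 454, 396 and 368 CPM in WT. Cldn3, a claudin gene, was the one higher (log2 fold change 1.07, adjusted p = 0.00757), with its highest value of 18.0 CPM in the second tumor. With 1 library left out, it was called in 2 fits of 6. Cdh1, encoding E-cadherin, was at 474, 437 and 389 CPM in SA and 406, 437 and 417 CPM in WT, and the groups overlapped (log2 fold change 0.04, adjusted p = 0.748).

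Terminal differentiation genes had the lowest median of the lists of related factors and targets, -1.27 over 19 genes tested, with 12 lower and 3 higher, and 11 lower and 4 higher with epithelial reference scaling. Sbsn, encoding suprabasin, fell most, by a log2 fold change of -3.14 (adjusted p = 4.17e-06), from 2.48e+03 CPM or more in WT to 242, 360 and 313 CPM in SA. Krt10, the suprabasal keratin with the highest TPM of the list, was at 5.68e+03, 8.36e+03 and 5.08e+03 CPM in SA and 2.33e+04 to 2.71e+04 CPM in WT (log2 fold change -1.97, adjusted p = 9.55e-05). As for Klf4, Ovol1 and Zfp750, the second tumor was the highest of the SA group. Casp14, the protease of cornification, went the other way, at 91.0, 117 and 82.5 CPM against 18.1, 23.8 and 21.3 CPM (log2 fold change 2.19, adjusted p = 1.57e-05), and Flg2 and Dsc1, named after their values had been seen, were also higher. Flg was not analysed here. Several genes, such as Tgm1, Dsg1a, Ovol2 and Trp73, stand in more than 1 list, and the family lists include factors of the 9 genes. Cdh1 and Esrp1 are both GRHL targets and epithelial reference genes, so that scaling rests partly on genes of the GRHL target list.

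Promoter windows were listed for 4 of the 9 genes, Grhl1 with both starts, Klf4, Grhl3 and Gata3. The TCF/LEF letters CTTTGAT, searched on both strands like those that follow, were in none of these 5 windows and in 3.73% of the 32851 promoter windows of the same length. The palindromes AACCGGTT for GRHL and GTCTAGAC for SMAD factors were also in none of the 5, and in 0.146% and 0.213% of all windows. The KLF letters CCACACCC and the GATA letters AGATAA, in 3.56% and 11.2% of all windows, were likewise not found. This says only that these letters are not in these windows.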

How the data were processed

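RNA of 3 SA tumors and 3 WT penises was made into stranded libraries and read from both ends. The submitters' processing notes name FastQC, TopHat, HTSeq and DESeq2 with mm10, and versions were not given in the sources used here. The authors deposited raw counts for RefSeq transcript rows, with FPKM and TPM that the authors derived from them. FPKM was not used. The row with the highest mean count stood for a gene. Counts were fitted in R 4.3.3 with edgeR 4.0.16 (filterByExpr, TMM, robust quasi-likelihood F-test, Benjamini-Hochberg over 16336 genes). The fit was also run on simulated counts in which few genes changed and as many rose as fell, which does not test the choice of scaling. A count of 3 in a library equals 0.0244 to 0.137 CPM, which covers counting error only. The 9 genes and the 18 lists were chosen with earlier results of these data known. Named genes are the 9, Smad4 and Apc, from each list of related genes the largest called rise and fall and the highest TPM, the 3 nearest profiles of Trp63 and Gata3, and cell markers that moved with a result. Some genes were named outside this rule, such as Cdh1, Ovol2, Trp53, Gata6, Krt5 and those marked as named after their values had been seen. Alternatives were DESeq2 1.42.0, other scalings (upper quartile, RLE, 12 epithelial reference genes), no filter, summed rows, glmTreat, a replicate block and each library left out. Some genes of the lists are not reported here by name. Library totals alone were added after the data had been seen. Sequences were read from RefSeq (GRCm38.p6) and the GRCm38 gene annotation.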

Additional observations from a re-analysis of the deposited data

How the results depend on the processing

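Each of the 9 genes kept its direction and its call with DESeq2, RLE or upper quartile scaling, without the filter on low counts or with summed rows, and 0 of the 9 genes passed glmTreat. Epithelial reference scaling left 1 gene lower and 2 higher. It gave log2 fold changes of -0.16 for Trp63, -0.43 for Klf4 (adjusted p = 0.0484), -0.35 for Klf5 (adjusted p = 0.0215), -0.22 for Ovol1 (adjusted p = 0.0509) and -0.35 for Zfp750 (adjusted p = 0.0189), none of them called, 0.50 for Grhl2 and 0.13 for Grhl3 (adjusted p = 0.248), with 1 gene (Gata3) higher past both thresholds. Library totals alone, added after the data had been seen, gave -0.77 for Klf4 (adjusted p = 0.0114), -0.23 for Grhl3 (adjusted p = 0.0382) and 0.13 for Grhl2 (adjusted p = 0.259), with 1 gene higher past both thresholds. The cause of these differences was not tested beyond the shift of all genes that each scaling brings. Over all genes, the lower and higher calls numbered 2865 and 3283 with TMM, 973 and 8538 with epithelial reference scaling, 1806 and 5248 with library totals, and 180 and 749 with glmTreat.

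When each library was left out, 6 to 7 of the 9 genes were lower and 0 to 1 higher, and 0 to 1 was higher past both thresholds, the 1 being Gata3 without the third SA tumor. The log2 fold change of Klf4 was -1.27 to -0.87 and that of Gata3 1.30 to 2.06. Of the counts of called genes in the lists under all alternatives, 39 differed by over 1.5 times from those given and 185 did not. Libraries with the same replicate number did not deviate together (mean correlation -0.07, and 0.03 for other numbers), and the replicate block kept 7 genes lower and 1 higher, with Gata3 at 1.72 and Trp63 at -0.83. It left no KLF gene and no GRHL target higher and no GATA gene lower. With 3 samples a group, an exact permutation test cannot give a p below 0.10. Depth limits low genes such as the uroplakins most.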

Other observations

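Markers of peripheral nerve and of sebaceous cells moved in opposite directions. Of 6 Schwann cell markers, 5 were lower in the SA tumors. Sox10, the factor of the glial lineage, was at 0.0743, 0.397 and 0.284 CPM in SA and 6.19, 5.74 and 6.47 CPM in WT, a log2 fold change of -4.53 (edgeR adjusted p = 3.96e-05). Of 6 sebaceous gland markers, 5 were higher in SA. Fads2, a fatty acid desaturase gene, was at 55.5, 57.3 and 42.4 CPM in SA and 7.41 to 9.98 CPM in WT, a log2 fold change of 2.62 (edgeR adjusted p = 9.08e-06), and Scd1 was at 141 to 225 CPM against 59.2 to 68.6 CPM. Elovl3 and Awat2, also called higher, stayed low. Elovl3 was at 1.34 to 2.55 CPM in SA and at most 0.0452 CPM in WT, and Awat2 at 1.375 to 2.22 CPM against 0.452 to 0.768 CPM. Mgst1 was not called, with a log2 fold change of -0.42. Of 8 endothelial markers, 3 were lower and none higher, and of 6 skeletal muscle markers tested, 2 were lower and 1 higher, at summed levels of 10.1 to 11.6 CPM in SA and 16.8 to 22.9 CPM in WT.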
